A study of Mus musculus with 17 samples.

Results

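The genes of the mitotic machinery were followed through sorted germ cells of the mouse testis. They are 42 genes chosen by name, matched by Entrez gene number, and all 42 had a row among the 24013 rows of the count table. All 42 also passed the filter on low counts. They comprise 9 mitotic cyclins, kinases and Cdk1-activating phosphatases, 9 genes of the spindle checkpoint and of anaphase, 13 of the kinetochore and centromere, and 11 of the spindle and cytokinesis.

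RNA was sequenced in 17 libraries of sorted cells from mice of a mixed B6/J X B6/N background, all labelled Tert-Tomato/+, a reporter of the telomerase gene Tert. Adult mice gave 3 of the 4 groups, all sorted as TERT-High. GFRA1pos cells (n = 4) carried GFRa1 but no Kit, GFRA1neg cells (n = 4) carried neither, and KITpos cells (n = 5) carried Kit. P6gonocyte cells (n = 4) came from mice at postnatal day 6 and were sorted as positive for TERT and for an OCT4-GFP reporter, which only their titles name. GFRa1 is a receptor for the niche factor GDNF, and Kit marks spermatogonia that have begun to differentiate. The adult gates rest on the Tert reporter, so cells with less of it are not represented. Whether the libraries of a group stem from different animals is not in the labels, and the p-values therefore rest on a spread between libraries that may be technical.

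In mitosis, cyclin A and cyclin B with the kinase Cdk1 drive entry, kinetochores form on centromeres that carry the histone variant CENP-A, and their outer plate binds spindle microtubules through the Ndc80 complex. The spindle checkpoint holds back the anaphase-promoting complex until every kinetochore is attached, after which separase cuts cohesin and the central spindle directs cytokinesis. Transcripts of most of these genes peak in the G2 and M phases and are scarce in cells outside the cycle. In the testis, spermatogonia multiply by mitosis before meiosis, and gonocytes resume division after birth.

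Total counts ran from 5178352 to 12641907 per library. As a check of the labels, the mean level of Gfra1 in CPM (the count as a rate of the library's total, scaled by TMM) was 389.9 in GFRA1pos and 145 in P6gonocyte, against 22.8 in GFRA1neg and 4.71 in KITpos. The mean level of Kit was 353 in KITpos and 188 in P6gonocyte, against 17.6 in GFRA1pos and 27.6 in GFRA1neg. The 5 germ cell markers summed to between 1071 to 1266 CPM in KITpos and 1673 to 2071 CPM in P6gonocyte, with none at 0. Transcripts of 7 spermatid genes summed to 64.1 to 1585 CPM in GFRA1pos, 313 to 1452 in GFRA1neg, 289 to 1099 in KITpos and 4.24 to 6.53 in P6gonocyte, and 7 spermatocyte genes to 105 to 243, 169 to 495, 151 to 338 and 56.8 to 174 CPM. The 7 Sertoli cell genes with a row summed to 10.5 to 14.3, 19.9 to 26.6, 7.8 to 37.1 and 41.8 to 132.5 CPM, and the 7 Leydig cell genes to 13.9 to 25.4, 9.77 to 26.5, 21.8 to 98.9 and 14.3 to 21.5 CPM. Of these 4 lists no gene was at 0 in every library, and their part in the results below was not tested beyond the fits given without the libraries richest in spermatid transcripts. P6gonocyte replicate 2 stood apart, with a Sertoli sum of 132.5 CPM against 41.8 to 47.4 in the other 3 and Pou5f1 (which encodes OCT4) at 5.53 CPM against 23.0 to 26.3, and the values that rest most on it, those of Cenpe, Cenpf, Mki67 and the class levels, are given with and without it.

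Most of the mitotic genes were at their lowest in the GFRA1neg cells. The group mean was lowest in GFRA1neg for 32 of the 42 genes, against 3007 of the 15451 genes tested. It was highest in P6gonocyte for 20 (3144 of the 15451), in KITpos for 15 (5347), in GFRA1pos for 5 (3241) and in GFRA1neg for 2 (3719). As a share, the 15 of KITpos was close to that of all genes. In the 4-group edgeR F-test 35 of the 42 genes differed at an adjusted p under 0.05, where 73.5% of all genes tested did. The 7 that did not pass were Aurka, Bub3, Espl1, Cenpk, Spc24, Cdca8 and Hmmr. In these bulk libraries fewer cells in a phase of the cycle and less RNA per cell cannot be told apart.

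The mean log2(CPM + 1) over the 42 genes was 6.11, 6.17, 6.00 and 6.11 in the GFRA1pos libraries and 5.69, 5.73, 5.73 and 5.61 in the GFRA1neg libraries. It was 6.43, 6.30, 6.46, 6.60 and 6.56 in KITpos and 6.53, 6.42, 6.52 and 6.57 in P6gonocyte. The 4 GFRA1neg libraries lay below all others, the 4 GFRA1pos libraries lay between, and KITpos and P6gonocyte overlapped. The 4 classes repeated this order of the lowest group, with different gaps. The 9 cyclin and kinase genes had group means ± SD of 5.97 ± 0.12 (GFRA1pos, n = 4), 5.40 ± 0.10 (GFRA1neg, n = 4), 6.04 ± 0.06 (KITpos, n = 5) and 6.09 ± 0.12 (P6gonocyte, n = 4), and the GFRA1pos libraries overlapped with those of the last 2 groups. The 9 checkpoint and anaphase genes stood at 6.63 ± 0.09, 6.37 ± 0.06, 6.76 ± 0.07 and 6.81 ± 0.04 in the same order, and the 13 kinetochore and centromere genes at 5.47 ± 0.07, 5.12 ± 0.04, 5.99 ± 0.22 and 6.05 ± 0.20. The 11 spindle and cytokinesis genes stood at 6.51 ± 0.08, 6.05 ± 0.15, 7.14 ± 0.21 and 7.15 ± 0.14, and in these last 2 classes the GFRA1pos libraries were below both KITpos and P6gonocyte without overlap. Without P6gonocyte replicate 2 the P6gonocyte level was 6.03 for the cyclin and kinase genes, 6.79 for the checkpoint, 6.15 for the kinetochore and 7.22 for the spindle genes, while in that library they stood at 6.27, 6.87, 5.75 and 6.96. These class levels are averages over genes on a log scale and are given as a description.

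**Figure D1:**
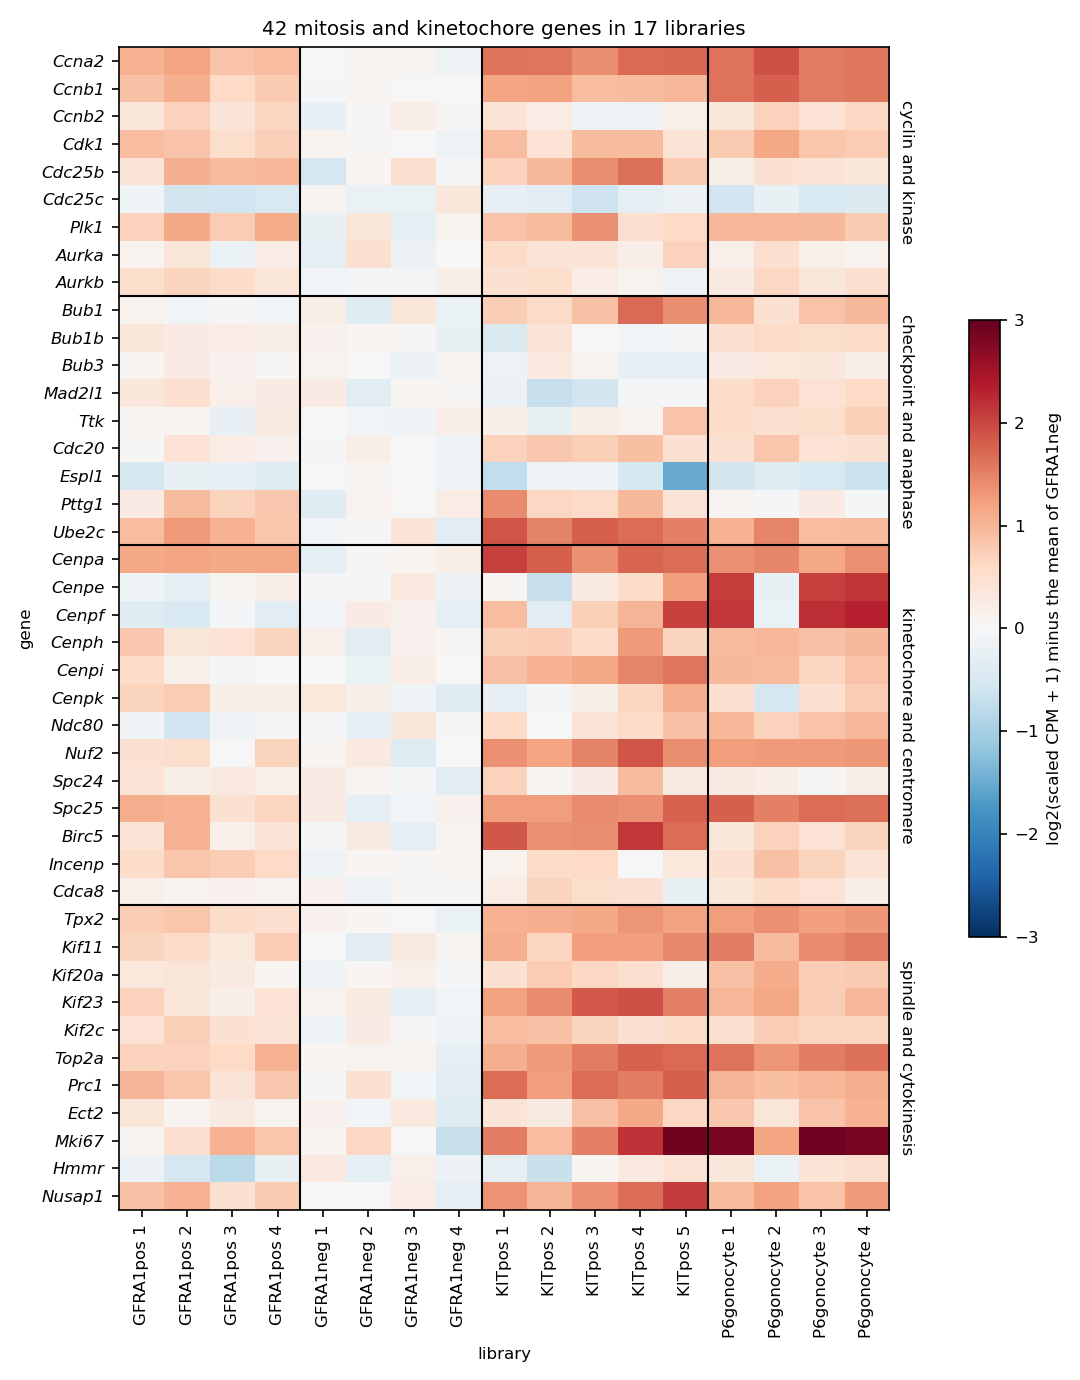
Heat map of the 42 genes (vertical axis, in 4 classes) in the 17 libraries (horizontal axis), as log2(scaled CPM + 1) minus the mean of the 4 GFRA1neg libraries. Most genes are above the GFRA1neg mean (red) in the other 3 groups, Cdc25c and Espl1 are mostly below it (blue), and Cenpe, Cenpf and Mki67 are paler in P6gonocyte replicate 2 than in the other P6gonocyte libraries.

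**Figure D2:**
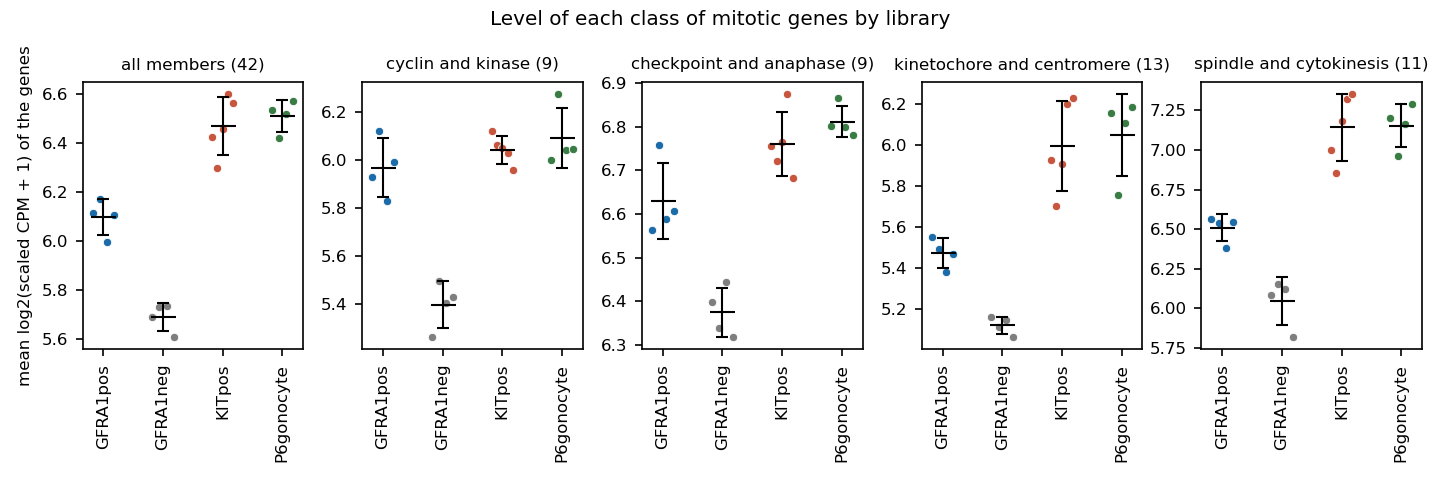
Mean log2(scaled CPM + 1) of all 42 genes and of each class (vertical axes, which do not start at 0) in each library (points) of the 4 groups, with the group mean and SD (black). GFRA1neg is lowest in every panel, and GFRA1pos reaches the KITpos and P6gonocyte levels for the cyclin and kinase genes but not for the kinetochore or spindle genes.

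The promoters of many mitotic genes are known to share 2 elements, which the listing by name did not use. The shares below describe the listed genes and were not tested. The cell cycle genes homology region (CHR) binds the DREAM and MuvB complexes, which hold such genes off in resting cells and, with B-MYB and FOXM1, turn them on in G2, and the CCAAT box binds the factor NF-Y. Promoter sequences of RefSeq (GRCm38.p6), from 250 bases before to 50 bases after the start site, were found for 35 of the 42 genes. A CHR, searched on both strands as TTTGAA and in its variant forms TTCGAA and, with A and T alone, TTTAAA, was present in 28 of the 35 (80.0%), against 31.9% of the 27025 genes with a promoter and 24.9% of the 12164 of them that were tested for expression. A CCAAT on either strand was present in 28 of the 35, against 41.1% and 43.4%, and both elements in 25 (71.4%), against 12.8% and 10.7%. The CHR forms cannot hold a CCAAT, and TTTGAA alone was present in 23 (65.7%), against 20.2% and 14.9%. Of the 28 genes with a CHR, 12 were higher in GFRA1pos than in GFRA1neg, 21 in KITpos and 23 in P6gonocyte. Of the 7 without one in this window, 3, 5 and 5 were. Over all genes tested, 7.30%, 22.1% and 18.8% were higher in these comparisons. The same calls were not counted for all tested genes with a CHR, and whether the calls go with the motif was not tested.

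The stretches just before the start of 6 genes are shown as examples of how the elements lie, since each carries both; they were picked after the motifs and the genes' values were seen and are not a sample of the 35. The letters run 5′ to 3′ in the direction of the gene, and capitals mark each CHR and each CCAAT or its complement ATTGG. Ccnb1 has its CHR 42 bases before the start, Cenpa 17, Kif11 19, Ube2c 29, Top2a 23 and 120, and Cdk1 15 and 71. The letters of Cenpa and Top2a (111 and 110 bases) stop short of that start, before the first base of any annotated transcript of the gene. Distances counted from the end of these 2 runs are therefore smaller.
Ccnb1, chr13:100786487-100786606, - strand: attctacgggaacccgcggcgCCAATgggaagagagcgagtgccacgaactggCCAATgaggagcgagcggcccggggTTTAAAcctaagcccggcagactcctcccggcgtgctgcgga
Cdk1, chr10:69352913-69353032, - strand: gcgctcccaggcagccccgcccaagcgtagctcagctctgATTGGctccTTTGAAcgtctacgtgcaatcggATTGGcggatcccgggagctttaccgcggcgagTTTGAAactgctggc
Ube2c, chr2:164769809-164769928, + strand: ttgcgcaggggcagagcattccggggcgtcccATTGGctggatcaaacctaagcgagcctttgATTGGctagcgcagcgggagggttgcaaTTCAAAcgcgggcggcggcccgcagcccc
Cenpa, chr5:30666766-30666876, + strand: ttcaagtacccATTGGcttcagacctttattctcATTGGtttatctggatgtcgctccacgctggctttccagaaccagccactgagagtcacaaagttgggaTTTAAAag
Kif11, chr19:37376262-37376381, + strand: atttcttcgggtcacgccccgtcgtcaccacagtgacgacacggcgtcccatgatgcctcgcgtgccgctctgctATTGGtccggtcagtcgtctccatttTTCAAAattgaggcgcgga
Top2a, chr11:99024200-99024309, - strand: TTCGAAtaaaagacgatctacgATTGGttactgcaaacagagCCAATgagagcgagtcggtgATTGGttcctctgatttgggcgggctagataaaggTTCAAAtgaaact

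Among the cyclins, Ccna2, which encodes cyclin A2 of S phase and mitosis, had 208, 229, 183 and 193 CPM in GFRA1pos and 100.2, 105, 107 and 91.0 CPM in GFRA1neg. It had 315, 308, 264, 329 and 333 CPM in KITpos and 315, 382, 298 and 302 CPM in P6gonocyte. Every GFRA1neg library was below every library of the other groups, every GFRA1pos library was below those of KITpos and P6gonocyte, and the last 2 groups overlapped. The log2 difference from GFRA1neg was 1.01 ± 0.12 (SE) in GFRA1pos, 1.62 ± 0.12 in KITpos and 1.69 ± 0.12 in P6gonocyte (edgeR adjusted p = 9.87e-06, 2.99e-09 and 2.41e-08). Ccnb1, which encodes cyclin B1, the partner of Cdk1 at mitotic entry, had 205, 239, 169 and 193 CPM in GFRA1pos and 108, 119, 109.5 and 109 CPM in GFRA1neg. It had 254, 258, 213, 216 and 224 CPM in KITpos and 347, 389.9, 330.3 and 337 CPM in P6gonocyte. The P6gonocyte libraries were above all others and the GFRA1neg libraries below all others, while GFRA1pos and KITpos overlapped. Its log2 difference from GFRA1neg was 0.85 ± 0.12 in GFRA1pos, 1.06 ± 0.11 in KITpos and 1.66 ± 0.12 in P6gonocyte (edgeR adjusted p = 5.37e-05, 3.92e-07 and 2.78e-08).

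Ccnb2, the other B-type cyclin, did not pass the test between KITpos and GFRA1neg. It had 77.1, 99.0, 80.0 and 96.1 CPM in GFRA1pos and 50.8, 62.1, 69.6 and 62.1 CPM in GFRA1neg. It had 81.1, 71.2, 55.6, 55.9 and 67.7 CPM in KITpos and 77.6, 98.0, 82.6 and 93.5 CPM in P6gonocyte. GFRA1neg did not overlap with GFRA1pos or P6gonocyte, and KITpos overlapped with all 3. Between KITpos and GFRA1neg the log2 difference was 0.12 ± 0.14 (adjusted p = 0.52), and that of KITpos from GFRA1pos was -0.41 ± 0.14 (adjusted p = 0.0181). The second was lost without GFRA1pos replicate 2 or 4 (adjusted p from 0.0635 to 0.0697) and without the 4 spermatid-rich libraries (0.0849). Cdk1, the kinase of the B-type cyclins, was higher than in GFRA1neg by 0.78 ± 0.16 in GFRA1pos, 0.78 ± 0.16 in KITpos and 0.91 ± 0.16 in P6gonocyte on the log2 scale, and Plk1, the polo-like kinase of mitosis, by 0.94 ± 0.18, 0.88 ± 0.18 and 0.93 ± 0.18. These 2 genes passed the test in all 3 comparisons and in none of the 3 others.

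At the other end of the class, Cdc25c, a phosphatase that activates Cdk1, had its highest mean in GFRA1neg. It had 44.9, 33.3, 32.5 and 35.6 CPM in GFRA1pos and 52.1, 42.4, 42.6 and 62.1 CPM in GFRA1neg. It had 41.3, 38.8, 31.5, 40.6 and 43.3 CPM in KITpos and 32.6, 41.7, 35.8 and 36.1 CPM in P6gonocyte. The P6gonocyte libraries were all below the GFRA1neg libraries, while GFRA1pos and KITpos overlapped with GFRA1neg. The log2 difference of P6gonocyte from GFRA1neg was -0.44 ± 0.15 (adjusted p = 0.0255), and it was lost without GFRA1neg replicate 1 or 4 or P6gonocyte replicate 1, 3 or 4 (adjusted p from 0.0577 to 0.111). Aurka, the kinase of spindle poles, had 50.8, 61.0, 41.5 and 55.1 CPM in GFRA1pos, 38.2, 66.8, 41.6 and 47.5 in GFRA1neg, 70.0, 62.5, 61.9, 54.2 and 76.9 in KITpos and 52.9, 68.1, 52.8 and 51.3 in P6gonocyte. The groups overlapped in each comparison of Aurka, and the 4-group adjusted p was 0.111.

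In the checkpoint and anaphase class the group with the lowest or highest level was not the same for all genes. Ube2c, the ubiquitin-conjugating enzyme of the anaphase-promoting complex, had 85.9, 109.5, 92.0 and 80.1 CPM in GFRA1pos and 42.05, 45.3, 58.6 and 34.8 CPM in GFRA1neg. It had 166, 127, 156, 144 and 128 CPM in KITpos and 92.8, 124, 85.6 and 86.0 CPM in P6gonocyte. GFRA1neg was below the other groups and KITpos above them, with GFRA1pos and P6gonocyte overlapping. Against GFRA1neg the log2 difference was 1.02 ± 0.16 in GFRA1pos, 1.68 ± 0.16 in KITpos and 1.10 ± 0.16 in P6gonocyte (edgeR adjusted p = 0.000254, 1.09e-07 and 5.09e-05). Bub1, a kinase of the checkpoint at the kinetochore, had 111, 96.6, 104 and 97.4 CPM in GFRA1pos and 119, 79.2, 133 and 88.6 CPM in GFRA1neg. It had 171, 154, 191, 338 and 271 CPM in KITpos and 204, 142, 187 and 202 CPM in P6gonocyte. GFRA1pos and GFRA1neg overlapped, with a log2 difference of -0.03 ± 0.22, and both lay below KITpos and P6gonocyte. The difference of KITpos from GFRA1neg was 1.10 ± 0.21 (adjusted p = 0.000263), and that of P6gonocyte was 0.81 ± 0.22 (adjusted p = 0.0055), which was 0.48 after the trend with transcript GC was removed from each library.

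The checkpoint genes Mad2l1, Bub1b and Bub3 had their lowest means in KITpos rather than in GFRA1neg, though the libraries of those groups overlapped for all 3 genes. Mad2l1, which encodes MAD2, had 152, 170.2, 132 and 142 CPM in GFRA1pos and 141, 93.6, 125 and 122 CPM in GFRA1neg. It had 105, 73.3, 81.1, 115 and 115 CPM in KITpos and 175, 192, 161 and 179 CPM in P6gonocyte. KITpos was below GFRA1pos and P6gonocyte without overlap and overlapped with GFRA1neg. The log2 difference of KITpos from GFRA1pos was -0.61 ± 0.15 (adjusted p = 0.00198), and -1.16 after the GC trend was removed, and that of P6gonocyte from KITpos was 0.85 ± 0.15 (adjusted p = 0.000129). Bub1b, which encodes BUBR1, had 207, 192, 188 and 186 CPM in GFRA1pos, 178, 168, 165 and 137 in GFRA1neg, 119.99, 212, 159, 152 and 157 in KITpos and 221, 239, 233 and 236 in P6gonocyte. Its P6gonocyte libraries were above all others, with log2 differences of 0.52 ± 0.14 from GFRA1neg and 0.54 ± 0.13 from KITpos (adjusted p = 0.00468 and 0.00208). Bub3, the WD-repeat partner of both BUB kinases, had 91.9, 102, 93.9 and 88.2 CPM in GFRA1pos, 92.4, 86.4, 76.0 and 91.1 in GFRA1neg, 77.4, 106, 92.7, 73.0 and 72.6 in KITpos and 103, 108, 109 and 97.3 in P6gonocyte. It had a 4-group adjusted p of 0.105, and its group means lay in the same order as those of Mad2l1 and Bub1b. Cdc20, the activator that the checkpoint complex holds back, was lowest in GFRA1neg and highest in KITpos, with a log2 difference of 0.73 ± 0.13 between them (adjusted p = 0.000119).

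Espl1, which encodes separase, had 121, 145, 141 and 130.1 CPM in GFRA1pos and 171, 178, 170.4 and 156 CPM in GFRA1neg. It had 101, 151, 151, 121 and 58.9 CPM in KITpos and 116, 131, 122 and 107 CPM in P6gonocyte. All 4 GFRA1neg libraries were above every library of the other groups. The log2 differences of KITpos (-0.53 ± 0.19, adjusted p = 0.0256) and P6gonocyte (-0.50 ± 0.20, adjusted p = 0.0448) from GFRA1neg passed, while the 4-group test did not (adjusted p = 0.0544). The first was lost without GFRA1pos replicate 4, GFRA1neg replicate 1 or 2 or KITpos replicate 1 (adjusted p from 0.0503 to 0.0583) and without the 4 spermatid-rich libraries (0.113) and with the length trend removed (0.216). The second was lost without GFRA1pos replicate 2, 3 or 4, GFRA1neg replicate 1, 2, 3 or 4, KITpos replicate 4 or P6gonocyte replicate 1, 2, 3 or 4 (adjusted p from 0.0511 to 0.112) and with no count filter (0.0648), without the 4 spermatid-rich libraries (0.157), with the length trend removed (0.13) and with the GC trend removed (0.23). Pttg1, which encodes securin, the inhibitor of separase, had 27.0, 44.5, 36.4 and 40.6 CPM in GFRA1pos and 17.3, 24.6, 22.9 and 26.7 CPM in GFRA1neg. It had 61.6, 35.3, 34.2, 45.0 and 30.1 CPM in KITpos and 24.0, 21.6, 26.9 and 21.7 CPM in P6gonocyte. P6gonocyte overlapped with GFRA1neg and lay below GFRA1pos and KITpos. The log2 difference of P6gonocyte from GFRA1pos was -0.65 ± 0.21 (adjusted p = 0.0199) and was lost without GFRA1pos replicate 2 or P6gonocyte replicate 2 or 4 (adjusted p from 0.0516 to 0.0679) and without the 4 spermatid-rich libraries (0.183). That of P6gonocyte from KITpos was -0.81 ± 0.20 (adjusted p = 0.00316).

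**Figure D3:**
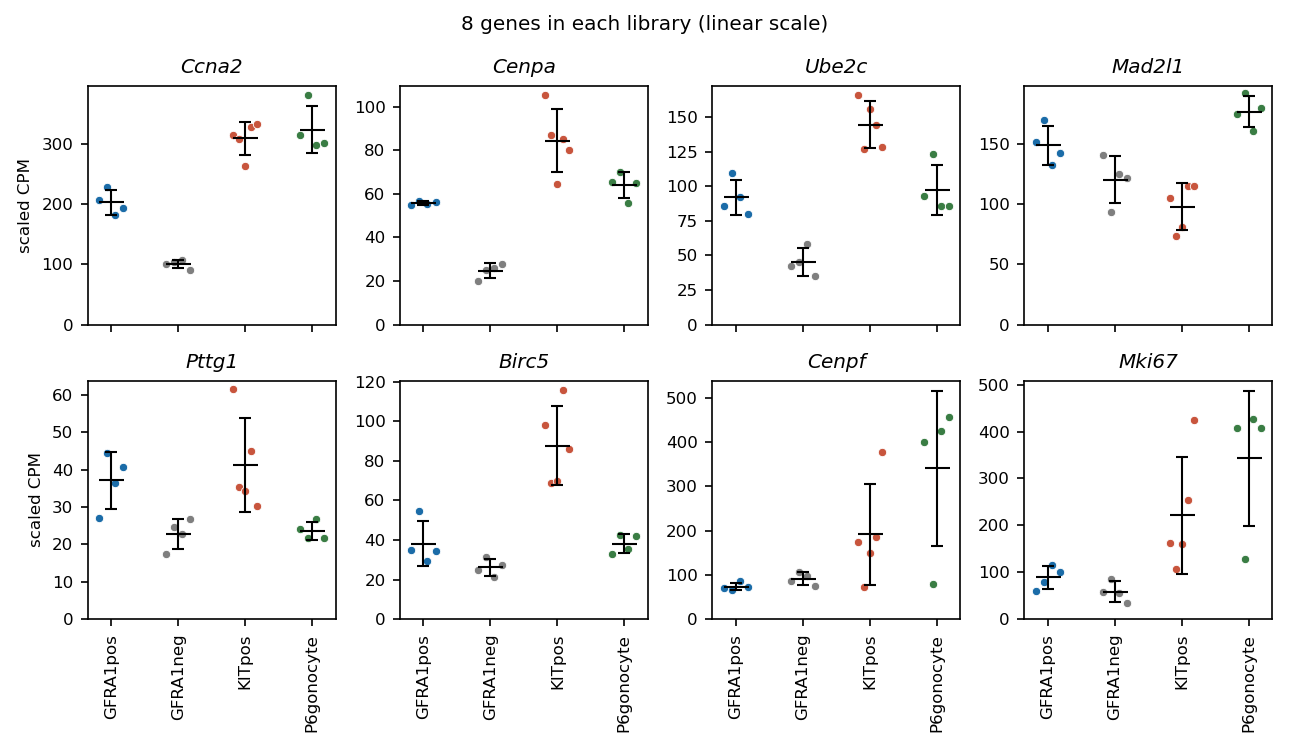
Scaled CPM (vertical axes, from 0) of 8 genes in each library (points) of the 4 groups, with the group mean and SD (black). Ccna2, Cenpa and Ube2c are lowest in GFRA1neg, Mad2l1 is lowest in KITpos, Pttg1 and Birc5 are lower in P6gonocyte than in KITpos, and for Cenpf and Mki67 P6gonocyte replicate 2 lies below the other P6gonocyte libraries.

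In the kinetochore and centromere class, Cenpa, which encodes the histone variant of centromeric nucleosomes, had 54.9, 56.7, 55.2 and 56.2 CPM in GFRA1pos and 19.9, 25.1, 25.9 and 27.8 CPM in GFRA1neg. It had 105, 87.0, 64.6, 85.3 and 80.0 CPM in KITpos and 65.3, 70.0, 55.6 and 64.7 CPM in P6gonocyte. Every GFRA1neg library was below every other library, and GFRA1pos was below KITpos. The log2 difference from GFRA1neg was 1.18 ± 0.14 in GFRA1pos, 1.77 ± 0.14 in KITpos and 1.37 ± 0.14 in P6gonocyte (edgeR adjusted p = 1.69e-05, 1.16e-08 and 1.75e-06), the largest of the 42 genes in the first of these comparisons. Spc25, of the Ndc80 complex, had 51.3, 49.7, 32.9 and 37.5 CPM in GFRA1pos and 28.4, 19.0, 22.3 and 26.0 CPM in GFRA1neg. It had 57.5, 57.4, 64.3, 62.6 and 83.0 CPM in KITpos and 84.7, 69.3, 77.9 and 76.3 CPM in P6gonocyte. GFRA1neg was below the other groups, GFRA1pos was below KITpos and P6gonocyte, and these 2 overlapped. Spc25 differed from GFRA1neg by log2 values of 0.84 ± 0.17, 1.44 ± 0.16 and 1.69 ± 0.17 in GFRA1pos, KITpos and P6gonocyte (edgeR adjusted p = 0.00194, 9.35e-07 and 1.06e-06).

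Of the other subunits of the Ndc80 complex, Nuf2 was higher than in GFRA1neg by 1.49 ± 0.17 in KITpos and 1.28 ± 0.17 in P6gonocyte on the log2 scale, and Ndc80 by 0.88 ± 0.18 in P6gonocyte. Unlike Spc25, the subunits Nuf2, Spc24 and Ndc80 did not pass between GFRA1pos and GFRA1neg. Their log2 differences there were 0.42 ± 0.17, 0.25 ± 0.18 and -0.19 ± 0.18 (edgeR adjusted p = 0.12, 0.41 and 0.54). Spc24 had 33.0, 27.8, 30.5 and 27.6 CPM in GFRA1pos, 29.5, 26.3, 24.0 and 19.7 in GFRA1neg, 40.7, 26.2, 29.4, 48.6 and 29.8 in KITpos and 30.1, 28.4, 25.5 and 28.6 in P6gonocyte. The 4 groups of Spc24 overlapped, and its 4-group adjusted p was 0.0883. Cenpk, of the inner kinetochore, had 13.6, 14.7, 9.36 and 9.63 CPM in GFRA1pos, 10.4, 9.44, 7.39 and 6.22 in GFRA1neg, 6.72, 7.88, 9.47, 13.5 and 18.7 in KITpos and 12.1, 5.53, 12.1 and 14.7 in P6gonocyte. The groups of Cenpk overlapped in every comparison (4-group adjusted p = 0.49), with KITpos replicate 5 highest and P6gonocyte replicate 2 lowest. Its inner kinetochore partners Cenph and Cenpi were higher in P6gonocyte than in GFRA1neg, by 0.99 ± 0.18 and 0.89 ± 0.19.

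In the chromosomal passenger complex, which corrects wrong attachments and guides cytokinesis, Birc5, which encodes survivin, had 34.8, 54.7, 29.2 and 34.2 CPM in GFRA1pos and 24.7, 31.3, 21.4 and 27.5 CPM in GFRA1neg. It had 98.0, 68.9, 70.0, 116 and 85.7 CPM in KITpos and 32.9, 42.3, 35.3 and 41.9 CPM in P6gonocyte. Every KITpos library was above every other library, by 1.74 ± 0.20 on the log2 scale from GFRA1neg (edgeR adjusted p = 8.84e-07), and P6gonocyte was below KITpos by a log2 difference of -1.20 ± 0.19 (adjusted p = 7.2e-05). Incenp, the scaffold of the complex, had 109, 133, 123 and 112 CPM in GFRA1pos and 67.4, 76.9, 75.6 and 76.7 CPM in GFRA1neg. It had 79.8, 109, 112, 73.9 and 92.7 CPM in KITpos and 103, 136, 118 and 98.5 CPM in P6gonocyte. GFRA1neg was below GFRA1pos and P6gonocyte without overlap, by 0.69 ± 0.14 and 0.62 ± 0.14 (adjusted p = 0.00264 and 0.0018), while KITpos overlapped with all groups. The log2 difference of KITpos from GFRA1pos was -0.35 ± 0.13 (adjusted p = 0.0369) and was lost without GFRA1pos replicate 2, 3 or 4 or KITpos replicate 1, 4 or 5 (adjusted p from 0.0523 to 0.109) and fitted on only the 2 groups (0.0732), without the 4 spermatid-rich libraries (0.196) and with the GC trend removed (0.138). Aurkb, the kinase of the complex, was higher in P6gonocyte than in GFRA1neg by 0.44 ± 0.14 (adjusted p = 0.0155). Cdca8, which encodes borealin, had group means from 98.2 CPM in GFRA1neg to 128 CPM in P6gonocyte, with a 4-group adjusted p of 0.0602.

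The motor Cenpe and the outer kinetochore protein gene Cenpf varied more among the KITpos and among the P6gonocyte libraries, relative to their means, than the rest of the class. Cenpe had 68.5, 60.8, 79.0 and 86.1 CPM in GFRA1pos and 72.0, 72.1, 91.2 and 66.3 CPM in GFRA1neg. It had 78.3, 46.3, 90.4, 111 and 179 CPM in KITpos and 320.2, 63.6, 311 and 334 CPM in P6gonocyte. P6gonocyte replicates 1, 3 and 4 were above all libraries of Cenpe, and replicate 2 was within the adult range. On the log2 scale P6gonocyte differed from KITpos by 1.35 ± 0.36 (adjusted p = 0.00466), and 1.68 without that library. It differed from GFRA1pos by 1.80 ± 0.39 and from GFRA1neg by 1.77 ± 0.39 (adjusted p = 0.00147 and 0.00137), or by 2.13 and 2.10 without that library, while the differences of GFRA1pos (-0.03 ± 0.38) and KITpos (0.42 ± 0.37) from GFRA1neg did not pass. Cenpf had 70.4, 65.6, 86.1 and 72.0 CPM in GFRA1pos and 85.0, 107, 98.2 and 74.0 CPM in GFRA1neg. It had 173, 71.5, 148, 185 and 378 CPM in KITpos and 399, 78.6, 425 and 457 CPM in P6gonocyte. KITpos replicate 2 and P6gonocyte replicate 2 fell within the range of GFRA1pos and GFRA1neg, and KITpos replicate 5 stood near the other P6gonocyte libraries. The log2 difference of P6gonocyte from GFRA1pos was 2.21 ± 0.44 (adjusted p = 0.000729), the largest of the 42 genes there, and 2.54 without P6gonocyte replicate 2. That of P6gonocyte from GFRA1neg was 1.90 ± 0.43 (adjusted p = 0.00168), and 2.23 without the same library. The difference of KITpos from GFRA1pos was 1.38 ± 0.41 (adjusted p = 0.00927), the largest there, and was lost without the 4 spermatid-rich libraries (0.0827). The difference of KITpos from GFRA1neg, 1.07 ± 0.41 (adjusted p = 0.0387), was lost without GFRA1neg replicate 1, 3 or 4 or KITpos replicate 4 or 5 (adjusted p from 0.0543 to 0.162) and by DESeq2 (0.0524), by limma voom (0.126), with the replicate block (0.245), without the 4 spermatid-rich libraries (0.0626) and with the GC trend removed (0.119), and it was 0.66 without KITpos replicate 5.

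Among the spindle and cytokinesis genes, Tpx2, which activates Aurora A on the spindle, had 126, 133, 109 and 106 CPM in GFRA1pos and 81.5, 78.2, 74.1 and 65.1 CPM in GFRA1neg. It had 154, 160.1, 165, 188 and 173 CPM in KITpos and 179, 195, 176 and 185 CPM in P6gonocyte. GFRA1neg was lowest and GFRA1pos next, each without overlap, and KITpos and P6gonocyte overlapped. The log2 difference from GFRA1neg was 0.66 ± 0.11 in GFRA1pos, 1.17 ± 0.11 in KITpos and 1.30 ± 0.11 in P6gonocyte (edgeR adjusted p = 0.00039, 6.8e-08 and 2.25e-07). Top2a, the topoisomerase that untangles chromosomes before anaphase, had 342, 340.4, 321 and 440.3 CPM in GFRA1pos and 221, 228, 225 and 176 CPM in GFRA1neg. It had 451, 517, 618, 727 and 687 CPM in KITpos and 659, 534, 614 and 666 CPM in P6gonocyte. Its groups stood in the same order as those of Tpx2, with no overlap among GFRA1neg, GFRA1pos and the other 2 groups together. Top2a differed from GFRA1neg on the log2 scale by 0.76 ± 0.15, 1.497 ± 0.15 and 1.54 ± 0.15 in GFRA1pos, KITpos and P6gonocyte (edgeR adjusted p = 0.00194, 1.94e-07 and 1.06e-06). Kif20a, a kinesin of the central spindle, had 151, 156, 146 and 126 CPM in GFRA1pos and 111, 125, 133 and 115 CPM in GFRA1neg. It had 166, 206, 186, 171 and 137 CPM in KITpos and 222, 261, 201 and 207 CPM in P6gonocyte. GFRA1pos and GFRA1neg overlapped for Kif20a, and P6gonocyte was above both, by 0.62 ± 0.13 and 0.88 ± 0.13 on the log2 scale (edgeR adjusted p = 0.00108 and 4.7e-05).

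Mki67, whose product Ki-67 coats mitotic chromosomes and is a common marker of proliferation, had large differences both between and within groups. It had 59.7, 79.7, 116 and 100.2 CPM in GFRA1pos and 58.5, 86.7, 56.4 and 34.1 CPM in GFRA1neg. It had 163, 107, 161, 254 and 424 CPM in KITpos and 408, 128, 427 and 408 CPM in P6gonocyte. GFRA1pos and GFRA1neg overlapped, and every KITpos and P6gonocyte library was above every GFRA1neg library. The log2 difference from GFRA1neg was 1.91 ± 0.39 in KITpos (edgeR adjusted p = 0.000527) and 2.54 ± 0.41 in P6gonocyte (adjusted p = 0.000109), the largest of the 42 genes in each of these comparisons, and 2.81 without P6gonocyte replicate 2. From GFRA1pos P6gonocyte differed by 1.95 ± 0.40 (adjusted p = 0.00102), or 2.22 without that library. The difference of GFRA1pos from GFRA1neg was 0.59 ± 0.39 and did not pass (adjusted p = 0.37). Ect2, which activates RhoA for the cleavage furrow, had 58.3, 47.5, 55.0 and 49.1 CPM in GFRA1pos and 49.7, 42.9, 55.7 and 35.0 CPM in GFRA1neg. It had 59.8, 54.7, 83.9, 101 and 70.0 CPM in KITpos and 79.4, 58.4, 82.3 and 93.6 CPM in P6gonocyte. P6gonocyte was above GFRA1neg without overlap, by 0.78 ± 0.19 (adjusted p = 0.00301), or 0.42 with the GC trend removed. Hmmr, a spindle assembly factor also known as a hyaluronan receptor, had 56.7, 44.8, 36.1 and 54.9 CPM in GFRA1pos, 79.2, 52.7, 71.1 and 56.4 in GFRA1neg, 52.2, 40.1, 66.9, 78.3 and 85.4 in KITpos and 81.0, 55.2, 84.7 and 91.3 in P6gonocyte. The groups of Hmmr overlapped in all comparisons, and its 4-group adjusted p was 0.0556.

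Between the adult groups without Kit, 19 of the 42 genes were higher in GFRA1pos than in GFRA1neg and 0 were lower, where 7.30% of all genes tested were higher and 6.84% lower. The median log2 difference of the 42 genes was 0.50, against -0.04 over all genes. The higher genes were 7 of the 9 cyclin and kinase genes (4 without the spermatid-rich libraries described below), 2 of the 9 checkpoint and anaphase genes, 4 of the 13 kinetochore genes and 6 of the 11 spindle genes. They ranged from 0.50 to 1.18 on the log2 scale. Of the 19, the kinesins Kif11 (0.57 ± 0.17) and Kif2c (0.50 ± 0.13), the microtubule-bundling Nusap1 (0.82 ± 0.20) and Prc1 (0.77 ± 0.17), the phosphatase Cdc25b (0.99 ± 0.30) and Cenph (0.60 ± 0.17) have not yet been given for this comparison. Without the 4 libraries richest in spermatid transcripts (GFRA1pos replicates 2 and 4, GFRA1neg replicate 2 and KITpos replicate 1), which leaves 2 GFRA1pos libraries, 12 were higher and 0 lower. The counts over all genes fell as well in that fit, to 753 higher and 515 lower of 15861, from 1128 and 1057 of 15451. Beside the 0 lower genes of the edgeR test, 1 was lower at an unadjusted p under 0.05, 0 by DESeq2, 1 by limma voom, 2 with the replicate block, and 1 without GFRA1pos replicate 1 or GFRA1neg replicate 2.

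The calls of 8 of these 19 genes depended on single libraries or settings. Ccnb2 (0.53 ± 0.14) lost its call without GFRA1pos replicate 2 or GFRA1neg replicate 1 (adjusted p from 0.0643 to 0.073) and without the 4 spermatid-rich libraries (0.158). Pttg1 (0.70 ± 0.21) did so without GFRA1pos replicate 2, 3 or 4 or GFRA1neg replicate 1 or 3 (adjusted p from 0.0611 to 0.109) and without the 4 spermatid-rich libraries (0.149). Cdc25b did so without GFRA1pos replicate 2, 3 or 4 or GFRA1neg replicate 1, 2 or 4 (adjusted p from 0.06 to 0.116) and fitted on only the 2 groups (0.05) and without the 4 spermatid-rich libraries (0.215). Kif11 did so without GFRA1pos replicate 1, 2 or 4 or GFRA1neg replicate 1, 2 or 4 (adjusted p from 0.0581 to 0.0969) and without the 4 spermatid-rich libraries (0.287). Cenph did so without GFRA1pos replicate 1 or GFRA1neg replicate 2 or 4 (adjusted p from 0.0554 to 0.0914) and without the 4 spermatid-rich libraries (0.0974). Kif2c did so without GFRA1pos replicate 2 or GFRA1neg replicate 1 or 4 (adjusted p from 0.0567 to 0.0632). Aurkb (0.54 ± 0.14) did so without the 4 spermatid-rich libraries (0.059), and Nusap1 without the 4 spermatid-rich libraries (0.0982). The other 11, among them Ccna2, Ccnb1, Cdk1, Plk1, Ube2c, Cenpa, Spc25, Incenp, Tpx2, Top2a and Prc1, kept theirs under all 28 alternatives.

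**Figure D4:**
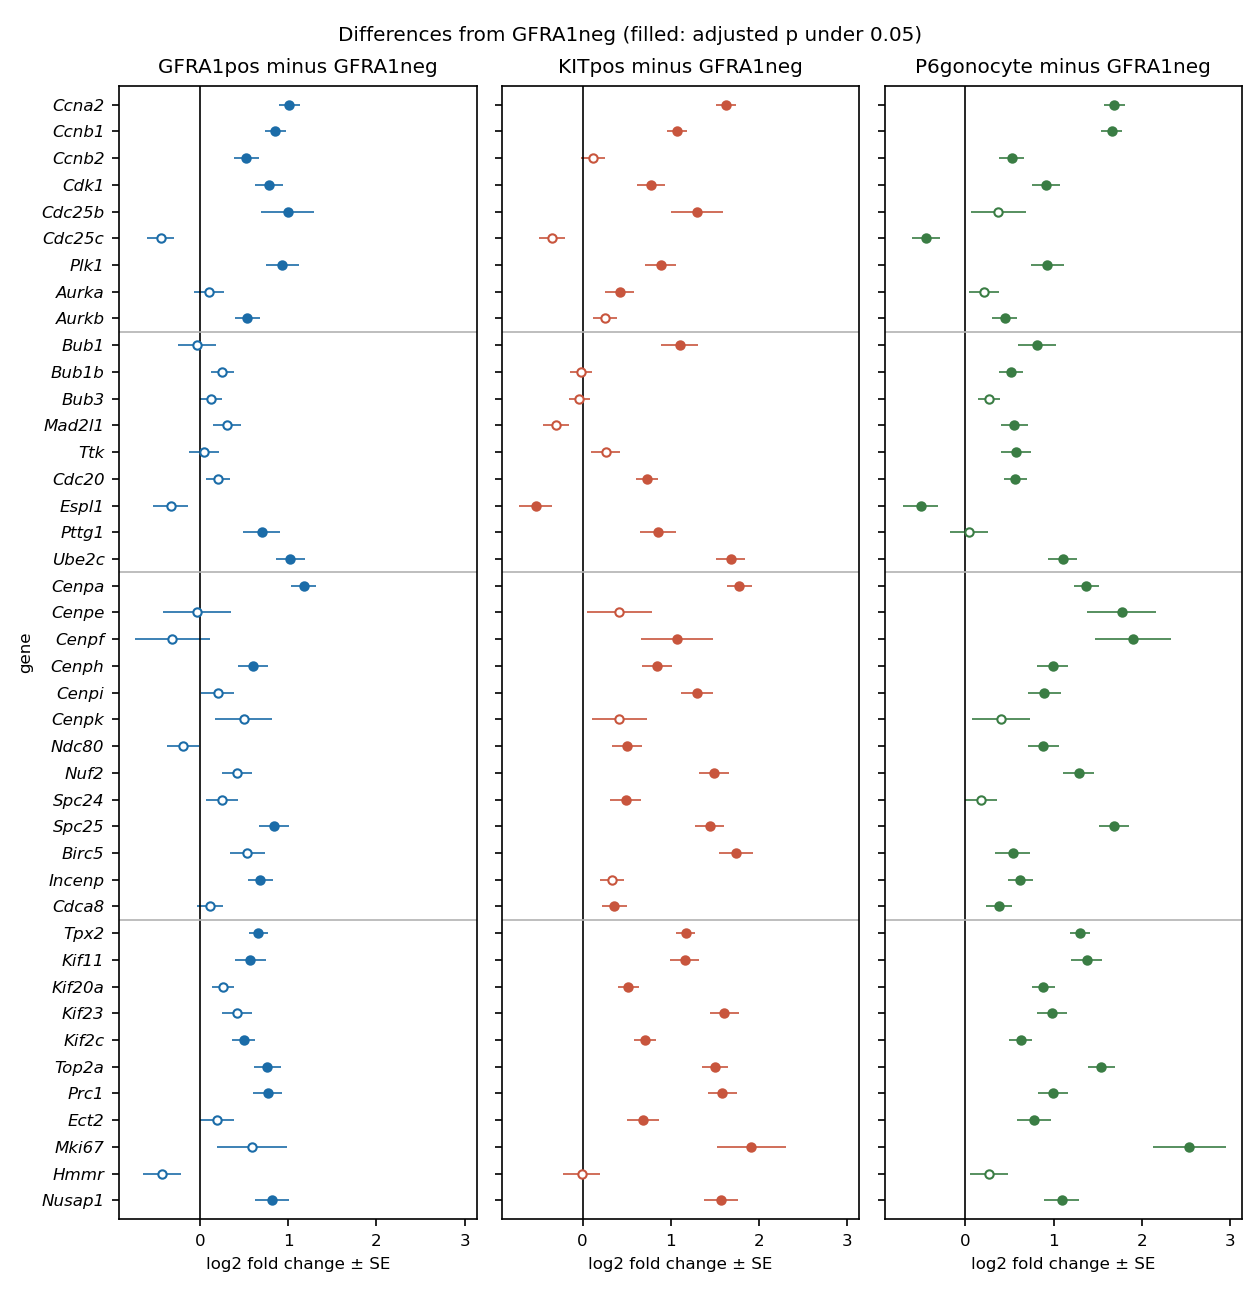
Log2 fold change ± SE (horizontal axes) of each of the 42 genes (vertical axis) in GFRA1pos, KITpos and P6gonocyte against GFRA1neg, with filled points for an edgeR adjusted p under 0.05. Filled points to the right number 19, 30 and 33, and filled points to the left 0, 1 and 2. The 3 panels share the GFRA1neg libraries.

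Against GFRA1neg, 30 of the 42 genes were higher in KITpos (22.1% of all genes) and 1, Espl1, was lower (23.0%), with a median of 0.81 against 0.03 over all genes. The lower count was 0 without GFRA1pos replicate 4, GFRA1neg replicate 1 or KITpos replicate 1, and 2 without GFRA1neg replicate 2 or 3 or KITpos replicate 5. By class, 6 cyclin and kinase genes, 4 checkpoint and anaphase genes, 10 kinetochore genes (6 without GFRA1neg replicate 4) and 10 spindle genes were higher. Among those not yet given, Prc1 (1.58 ± 0.16), Nusap1 (1.57 ± 0.19) and Kif23 (1.61 ± 0.17), which build the central spindle and midbody, and Cenpi (1.30 ± 0.18) and Kif11 (1.16 ± 0.17) kept their calls under all alternatives. The genes whose calls did not hold under all of them were Aurka, Cenph, Ndc80, Spc24, Cdca8 and Ect2, beside Espl1 and Cenpf described above. Aurka (0.42 ± 0.17) lost its call without GFRA1pos replicate 1, GFRA1neg replicate 1, 3 or 4, KITpos replicate 1, 2, 3 or 5 or P6gonocyte replicate 1, 3 or 4 (adjusted p from 0.0514 to 0.158) and with RLE scaling (0.0647), with upper-quartile scaling (0.0637), by DESeq2 (0.0611), fitted on only the 2 groups (0.0997) and with the length trend removed (0.166). Ndc80 (0.50 ± 0.17) did so without GFRA1neg replicate 1, 2 or 4 or KITpos replicate 5 (adjusted p from 0.0502 to 0.0698) and fitted on only the 2 groups (0.0727), without the 4 spermatid-rich libraries (0.09), with the length trend removed (0.0562) and with the GC trend removed (0.135). Spc24 (0.49 ± 0.17) did so without GFRA1neg replicate 3 or 4 or KITpos replicate 1 or 4 (adjusted p from 0.066 to 0.106) and fitted on only the 2 groups (0.112), without the 4 spermatid-rich libraries (0.0888) and with the length trend removed (0.273). Cdca8 (0.36 ± 0.14) did so without GFRA1pos replicate 1, 2 or 3, GFRA1neg replicate 1, 2, 3 or 4, KITpos replicate 2, 3 or 4 or P6gonocyte replicate 1, 3 or 4 (adjusted p from 0.0522 to 0.124) and with RLE scaling (0.0515), with upper-quartile scaling (0.0609), by limma voom (0.0614), fitted on only the 2 groups (0.157), without the 4 spermatid-rich libraries (0.1) and with the length trend removed (0.577). Cenph (0.84 ± 0.17) did so with the length trend removed (0.0947), and Ect2 (0.69 ± 0.18) with the GC trend removed (0.0787).

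Against GFRA1pos, 19 genes were higher in KITpos (24.9% of all genes) and 3 lower (23.7%), with a median of 0.37 against 0.07 over all genes. Of the cyclin and kinase genes 1, Ccna2 (0.61 ± 0.11), was higher (2 without GFRA1pos replicate 2 or with the GC trend removed), beside 3 checkpoint and anaphase genes, 7 kinetochore genes and 8 spindle genes. Kif23 (1.19 ± 0.16), Birc5 (1.20 ± 0.19), Bub1 (1.13 ± 0.21) and Nuf2 (1.07 ± 0.17) were among the largest. The 3 lower genes were Mad2l1, Ccnb2 and Incenp, whose values are given above. After the GC trend was removed, Bub1 was at 0.60 and Nuf2 at 0.64, and Kif11 (0.59 ± 0.17) and Nusap1 (0.75 ± 0.19) lost their calls (adjusted p = 0.358 and 0.183). With the length trend removed, Cenpa (0.60 ± 0.13) and Spc25 (0.60 ± 0.16) lost theirs (adjusted p = 0.0748 and 0.192). Ect2 (0.49 ± 0.18) lost its call without GFRA1pos replicate 2, 3 or 4 or KITpos replicate 3 or 4 (adjusted p from 0.0508 to 0.101) and with RLE scaling (0.056), without the 4 spermatid-rich libraries (0.188) and with the GC trend removed (0.819), and its direction turned in the last of these (log2 difference -0.048). The 3 lower genes became 5 with RLE or upper-quartile scaling and by DESeq2, and 1 without the spermatid-rich libraries. Without GFRA1pos replicate 2 or 4 there was 1 lower gene, and without KITpos replicate 2 there were 5.

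The day 6 cells were set against each adult group. In P6gonocyte against GFRA1neg, 33 genes were higher (18.8% of all genes) and 2, Cdc25c and Espl1, lower (24.9%), with a median of 0.85 against -0.09 over all genes. The libraries without which the 2 lower calls were lost are named with those genes. By class the higher genes were 6 cyclin and kinase genes, 6 checkpoint and anaphase genes, 11 kinetochore genes and 10 spindle genes. Beyond the genes above, Kif11 (1.38 ± 0.18), Nusap1 (1.09 ± 0.20), Prc1 (1.00 ± 0.17), Kif23 (0.98 ± 0.17) and Kif2c (0.63 ± 0.13) were higher under all alternatives. Birc5 (0.54 ± 0.20) lost its call without GFRA1neg replicate 1, 3 or 4 or P6gonocyte replicate 2 or 4 (adjusted p from 0.0553 to 0.107) and with upper-quartile scaling (0.0501), by limma voom (0.0514) and with the GC trend removed (0.0719). Cdca8 (0.38 ± 0.15) did so without GFRA1pos replicate 1, 2 or 3, GFRA1neg replicate 2, 3 or 4 or P6gonocyte replicate 1, 2 or 3 (adjusted p from 0.054 to 0.119) and with upper-quartile scaling (0.0588), without the 4 spermatid-rich libraries (0.0664) and with the length trend removed (0.0933). Mad2l1 (0.55 ± 0.15) and Ttk (0.57 ± 0.17), a checkpoint kinase, did so with the GC trend removed (adjusted p = 0.166 and 0.095).

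In P6gonocyte against GFRA1pos, 19 genes were higher (17.3% of all genes) and 1, Pttg1, lower (21.9%), with a median of 0.27 against -0.05 over all genes. The classes gave 2 cyclin and kinase genes (Ccna2 at 0.67 ± 0.12 and Ccnb1 at 0.80 ± 0.12), 3 checkpoint and anaphase genes (1 without GFRA1pos replicate 3), 6 kinetochore genes and 8 spindle genes (5 without the spermatid-rich libraries or with the GC trend removed). Of the cyclin and kinase genes, 7 of 9 had passed between GFRA1pos and GFRA1neg and 2 of 9 passed here; a difference between these counts was not tested, and the comparisons share GFRA1pos. Ndc80 (1.07 ± 0.18), Kif20a and Tpx2 (0.63 ± 0.11) kept their calls under all alternatives. With the GC trend removed 15 genes were higher and 2 lower, Bub1 (0.84 ± 0.22) was at 0.34 (adjusted p = 0.104), Ccnb1 at 0.50 and Top2a (0.78 ± 0.15) at 0.41. Over all genes 2278 were higher and 3160 lower in that fit, against 2679 and 3381 in the main one. Cdc20 (0.36 ± 0.13) lost its call without GFRA1pos replicate 1, 3 or 4 or P6gonocyte replicate 1 or 2 (adjusted p from 0.0508 to 0.136) and with upper-quartile scaling (0.0585), with no count filter (0.0668) and with the length trend removed (0.0525). Hmmr (0.70 ± 0.22) did so without GFRA1pos replicate 3 or P6gonocyte replicate 4 (adjusted p from 0.0558 to 0.0625) and without the 4 spermatid-rich libraries (0.0584) and with the GC trend removed (0.273). Ect2 (0.58 ± 0.19) did so without GFRA1pos replicate 2 or 4 or P6gonocyte replicate 4 (adjusted p from 0.0584 to 0.0727) and without the 4 spermatid-rich libraries (0.149) and with the GC trend removed (0.889). Ttk (0.53 ± 0.17) did so without GFRA1pos replicate 3 or P6gonocyte replicate 4 (adjusted p from 0.0591 to 0.0745) and with the GC trend removed (0.456).

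Between P6gonocyte and KITpos the genes differed in both directions. In P6gonocyte 7 genes were higher (21.8% of all genes) and 8 lower (27.3%), with a median of 0.06 against -0.09 over all genes. The higher genes were Ccnb1 (0.59 ± 0.11), Ccnb2, Bub1b, Bub3, Mad2l1, Cenpe and Kif20a, and the lower ones Cdc25b (-0.92 ± 0.29), Pttg1, Ube2c (-0.57 ± 0.15), Cenpa (-0.40 ± 0.13), Birc5, Kif23 (-0.62 ± 0.16), Prc1 (-0.59 ± 0.16) and Nusap1 (-0.48 ± 0.18). As shares of the 42 genes, both counts were below those of all genes. Ccnb2 (0.41 ± 0.14) lost its call without P6gonocyte replicate 2 or 4 (adjusted p from 0.0515 to 0.0551), and Kif20a (0.36 ± 0.12) without P6gonocyte replicate 2 (adjusted p = 0.0718). Bub3 (0.30 ± 0.12) did so without GFRA1pos replicate 1 or 4, KITpos replicate 1, 4 or 5 or P6gonocyte replicate 1, 2 or 3 (adjusted p from 0.0505 to 0.0963) and with no count filter (0.0669), fitted on only the 2 groups (0.0617), with the replicate block (0.0696), without the 4 spermatid-rich libraries (0.0503), with the length trend removed (0.0632) and with the GC trend removed (0.139). Cenpa did so without KITpos replicate 1 or P6gonocyte replicate 3 (adjusted p from 0.0566 to 0.0766) and fitted on only the 2 groups (0.0545), without the 4 spermatid-rich libraries (0.155) and with the length trend removed (0.332). Nusap1 did so without KITpos replicate 4 or 5 or P6gonocyte replicate 1 or 3 (adjusted p from 0.0716 to 0.131) and with RLE scaling (0.0524), by limma voom (0.0575), fitted on only the 2 groups (0.0773), with the replicate block (0.151) and without the 4 spermatid-rich libraries (0.0728). Cenpf and Mki67, which did not pass here, were at 0.83 and 0.63, and without P6gonocyte replicate 2 at 1.17 and 0.91 (adjusted p = 0.00508 and 0.0342). With the replicate block 11 genes were higher and 7 lower. Over all genes 3456 were then higher and 4237 lower, against 3369 and 4224 without it.

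The 16 genes not given library by library had group means from 3.75 CPM (Cdc25b in GFRA1neg) to 237 CPM (Kif11 in P6gonocyte). They are Cdk1, Cdc25b, Plk1, Aurkb, Ttk, Cdc20, Cenph, Cenpi, Ndc80, Nuf2, Cdca8, Kif11, Kif23, Kif2c, Prc1 and Nusap1, and all of them but Ndc80 had their lowest mean in GFRA1neg. The other genes not lowest in GFRA1neg were among those that the rule for library values had picked out. The low GFRA1neg means of these 16 are therefore not a separate result.

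The genes described above as varying within KITpos and P6gonocyte are also long. Cenpe, Cenpf and Mki67 have the longest transcripts of the 42, at 7910, 11130 and 10061 bases, with a GC content of 42.9, 43.3 and 46.6%. Next in length are Mad2l1 (7557 bases, 40.1% GC) and Espl1 (6658 bases, 56.1% GC). In P6gonocyte replicate 2, where the first 3 genes were low, these had their highest values of that group (192 and 131 CPM). Over all genes tested with a known transcript, those of low GC (under 42%, 1481 genes) were low against those of high GC (52% or more, 5829 genes) in KITpos replicate 2 (a median log2 gap of -0.57 from the group mean) and P6gonocyte replicate 2 (-0.39), and high in KITpos replicate 5 (0.46). Long transcripts (6000 bases or more) were low against short ones (under 2000) in P6gonocyte replicate 2 (-0.39) and KITpos replicate 1 (-0.38). This length gap was -0.019 in KITpos replicate 2 and 0.064 in KITpos replicate 5. Between groups, low GC genes had a median log2 difference of 0.53 in KITpos minus GFRA1pos and 0.53 in P6gonocyte minus GFRA1pos, and high GC genes -0.11 and -0.31. In GFRA1pos minus GFRA1neg the medians were -0.15 and -0.03, in KITpos minus GFRA1neg 0.37 and -0.13, and in P6gonocyte minus GFRA1neg 0.35 and -0.29. Short and long transcripts had medians of 0.0089 and -0.12 in GFRA1pos minus GFRA1neg and 0.35 and -0.23 in KITpos minus GFRA1neg. They had 0.02 and -0.18 in P6gonocyte minus GFRA1neg, and -0.45 and 0.10 in P6gonocyte minus KITpos. Of the 42 genes, 6 were under 42% GC and 9 at 52% or more. With the GC trend of each library removed, 22 of the 42 were higher and 1 lower in GFRA1pos than in GFRA1neg, 29 and 3 in KITpos than in GFRA1neg, and 30 and 1 in P6gonocyte than in GFRA1neg. Over all 15451 genes that fit gave 1426 and 1086, 3306 and 3701, and 2998 and 3640. With the length trend removed, the counts of the 42 in these comparisons were 19 and 0, 26 and 1, and 33 and 1. Over all genes they were 1352 and 1019, 3415 and 3618, and 3203 and 3754.

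Beyond the 42 genes, 126 other mitotic genes and 34 genes of DNA replication were counted in the same fit. Some of the 126 belong to complexes that hold none of the 42, such as cohesin and condensin. Of the 126, 14 were higher and 1 lower in GFRA1pos than in GFRA1neg, 58 and 9 in KITpos than in GFRA1neg, and 68 and 8 in P6gonocyte than in GFRA1neg, with medians of 0.11, 0.39 and 0.45. The background shares for these comparisons are those printed above. Of the 14 higher in GFRA1pos, 4 were among the 13 regulators of mitotic entry and 3 among the 27 further spindle and cytokinesis genes, and each of the other 7 complexes gave 1. In KITpos and P6gonocyte, the cohesin genes, which hold sister chromatids together, had 4 and 11 of 13 higher and 0 and 1 lower than in GFRA1neg. The 4 became 2 without GFRA1neg replicate 1, 2 or 3 or KITpos replicate 4, and 2 with 3 lower after the GC trend was removed. The condensin genes, which compact chromosomes, had 3 (5 without KITpos replicate 2) and 6 of 8 higher and 0 lower in both.

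Among the kinetochore genes beyond the 42, the constitutive centromere network had 11 and 5 of 18 higher and 1 and 0 lower in KITpos and P6gonocyte than in GFRA1neg. The 5 became 3 without GFRA1neg replicate 1 or 4 or P6gonocyte replicate 1. The outer kinetochore had 7 and 7 of 11 higher and 1 and 0 lower. The second 7 became 3 without P6gonocyte replicate 4, and with the GC trend removed these counts were 4 and 3. The anaphase-promoting complex had 7 and 6 of 17 higher and 3 and 1 lower, the further spindle and cytokinesis genes 15 and 18 of 27 higher and 2 and 2 lower, and the regulators of mitotic entry 6 and 10 of 13 higher and 1 and 2 lower. The B-MYB, FOXM1 and DREAM factors had 3 and 3 of 12 higher and 0 and 1 lower, and the checkpoint silencing and RZZ complex genes 2 and 2 of 7 higher and 1 and 1 lower. The higher counts of these 2 sets were near the shares of all genes, 22.1% in KITpos and 18.8% in P6gonocyte. Both counts of 2 became 1 without any one of several libraries, among them GFRA1neg replicates 2 and 4. The 2 of P6gonocyte became 5 when fitted on only the 2 groups. Lower counts of 1 or 2 also moved by 1 gene in several complexes. Without P6gonocyte replicate 4 the 8 lower of the 126 became 5. The DNA replication genes had 24, 28 and 30 of 34 higher and 0, 3 and 0 lower, with medians of 0.60, 0.88 and 1.00. With the length trend removed the 14 of 126 became 22, and without the spermatid-rich libraries 10.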

How the data were processed

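Cells were sorted into Trizol, and cDNA was amplified from total RNA with the NuGEN Ovation V2 kit before TruSeq V2 libraries were made and sequenced with paired ends, per the labels' protocols. The authors deposited whole-number counts for each gene, which had not been normalized as far as the values show. Per the submitters' processing notes, which give no roles, the build was mm9 and the tools were Bowtie, DESeq, DESeq2, Trim Galore, TopHat2 2.0.4 and Bowtie2 2.0.0-6. How reads were counted, with which annotation and whether by strand, is not given in the sources used here, so antisense or overlapping genes could not be told apart. The column for GFRA1pos replicate 1 is spelled GFP in place of GFR and was read as a slip, on which the GFRA1pos values rest. Symbols came from a RefSeq table of GRCm38.p6 by Entrez number (23930 of 24013 rows). No other row held the same counts as any of the 42 genes.

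The test was the quasi-likelihood F-test of edgeR 4.0.16 under R 4.3.3 (all 17 libraries, 1 mean per group, TMM, filterByExpr by group, Benjamini-Hochberg over 15451 genes, adjusted p under 0.05). A difference is a log2 fold change with its SE, which was derived as the absolute log2 fold change over the square root of the test's F. The common biological coefficient of variation was 0.30. For 28 pairs of replicates the chi-square per degree of freedom was 3.89 to 46.5, so no 2 were alike within counting error.

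The 42 genes and all gene lists were chosen with earlier results of these data known. Values in every library are given, by a written rule, for the 2 genes of each class with the smallest and the 2 with the largest 4-group p, the largest and smallest difference of each comparison, and genes called against the majority (26 genes). Alternatives were RLE and upper-quartile scaling, limma voom 3.58.1, DESeq2 1.42.0, no count filter or one of 1 CPM in 4 libraries, fits of the 2 compared groups alone, a replicate block, and fits without each library in turn. Chosen after seeing the data were leaving out the 4 libraries richest in spermatid transcripts, and removing from each library a lowess trend (span 0.3) of log2 CPM on transcript length or, after that, on transcript GC, with the limits used for length and GC. Lengths and GC are of the longest coding transcript in GENCODE vM21 (14337 of 15451 genes), not of the authors' annotation. A GC or length trend can hold biological differences as well as technical ones, and these were not separated. Figures used matplotlib 3.10.9.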

Additional observations from a re-analysis of the deposited data

Results flagged for a closer look

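Each of the 42 genes was examined in each group of libraries (168 in all) for a library far from the others of its group, and 12 were found, where chance flags about 1 in 20 groups. P6gonocyte replicate 2 held 6 of the 12. In it Cenpe was at 63.6 CPM (310.7 to 334.0 in the other 3), Cenpf at 78.6 CPM (399 to 457) and Mki67 at 128 CPM (408 to 427), all below the others. Cdk1 was at 48.0 CPM in the same library (36.1 to 37.9), Aurka at 68.1 CPM (51.3 to 52.9) and Cdc20 at 115 CPM (87.0 to 89.6), all above the others. That library also had the higher Sertoli cell sum and the lower Pou5f1 given with the data, and the part of these in its values was not tested.

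In P6gonocyte replicate 4 Plk1 was at 68.7 CPM (77.8 to 79.6 in the others) and Ttk at 145 CPM (127 to 130.1). In KITpos, Cenph was at 39.7 CPM in replicate 4 (23.6 to 27.0) and Spc25 at 83.0 CPM in replicate 5 (57.4 to 64.3). In GFRA1neg, Incenp was at 67.4 CPM in replicate 1 (75.6 to 76.9) and Top2a at 176 CPM in replicate 4 (221 to 228).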

How the results depend on the processing

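Of the 252 differences (42 genes in 6 comparisons), 142 passed and 99 of these passed under all 28 alternatives; 43 were lost in at least 1, of which 29 in a fit without 1 library, and 35 differences that had not passed did so in at least 1. The 110 values that did not pass changed sign in 152 of their 3080 pairs of value and alternative, so their signs are not read as directions. A called difference turned direction once: Ect2 in KITpos minus GFRA1pos was -0.048 with the GC trend removed. The counts of higher genes stayed within 1.5 times except in GFRA1pos minus GFRA1neg (19, or 12 without the 4 spermatid-rich libraries) and P6gonocyte minus KITpos (7, or 11 with the replicate block). Over all genes the higher counts went from 1128 to 753 in the first case and from 3369 to 3456 in the second. The counts of lower genes among the 42 are small and moved more. In GFRA1pos minus GFRA1neg the 0 became 1 by limma voom, 1 in the fit of only the 2 groups, 2 with the replicate block and 1 with the GC trend removed. In KITpos minus GFRA1neg the 1 became 2 with RLE or upper-quartile scaling, by DESeq2 and with the replicate block, and 3 with the GC trend removed. In KITpos minus GFRA1pos the 3 became 5 with RLE or upper-quartile scaling and by DESeq2, and 1 without the spermatid-rich libraries. In P6gonocyte minus GFRA1pos the 1 became 0 without the spermatid-rich libraries and 2 with the GC trend removed. In P6gonocyte minus GFRA1neg the 2 became 1 with no filter, without the spermatid-rich libraries, and with the length or the GC trend removed. The cause was not tested. Leaving out 1 library at a time gave 14 to 19 higher and 0 to 1 lower genes in GFRA1pos minus GFRA1neg, 25 to 31 and 0 to 2 in KITpos minus GFRA1neg, 18 to 21 and 1 to 5 in KITpos minus GFRA1pos, 16 to 20 and 0 to 1 in P6gonocyte minus GFRA1pos, 31 to 33 and 0 to 2 in P6gonocyte minus GFRA1neg, and 6 to 10 and 6 to 9 in P6gonocyte minus KITpos, with 33 to 39 genes differing among the 4 groups. The 1 of P6gonocyte minus GFRA1pos was 0 without GFRA1pos replicate 2 or P6gonocyte replicate 2 or 4. The 2 of P6gonocyte minus GFRA1neg were 0 without GFRA1neg replicate 1 or 4 or P6gonocyte replicate 1, 3 or 4, and 1 without GFRA1pos replicate 2, 3 or 4, GFRA1neg replicate 2 or 3, KITpos replicate 4 or P6gonocyte replicate 2. The replicate numbers were not shown to pair samples: over 24 pairs of the same number the correlation of deviations from the group means ran from -0.42 to 0.49, was over 0.1 in 5, and in 7 was the best with its own number. Of the 4 pairs of GFRA1pos with GFRA1neg, 3 (0.44, 0.49 and 0.29) correlated best with their own number and the fourth (0.07) did not, a hint of pairing from the data and not from the labels. With the replicate block 38 genes differed among the 4 groups, against 35. KITpos replicate 5 has a number of its own. Depth was 5178352 to 12641907 counts per library, and the scarcest gene, Cdc25b, had a mean of 3.75 CPM in GFRA1neg.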
